A study of Mus musculus with 2 samples.

Results

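Microexons are internal exons of 3 to 27 nucleotides (nt), short enough to add only a few amino acids to a protein. The annotation used for these data (Ensembl release 65 on the mouse assembly mm9) lists 351001 exons, of which 7677 are 3 to 27 nt long and 2892, in 2004 genes, lie inside a transcript with an exon on either side. Those 2892 exons were the members, and their inclusion in mature RNA was read from splice junction reads. The tissue was the central nervous system at embryonic day 14, from mice of strain C57BL/6J, pooled over male and female littermates, with no treatment or genetic change named in the labels. Polyadenylated RNA was sequenced as 2 biological replicates of 1 group, so there was no contrast between conditions and no test was made. The junction table gives reads in 2 fields whose order is not matched to the numbered replicates. They are called field 1 and field 2, every value is given for both (n = 2), and no direction is read from a difference between them.

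Splicing joins exons by cutting out the introns between them, and an exon may be kept in some transcripts of a gene and skipped in others. Very short exons are hard for the splicing machinery to recognise, and in neurons many of them depend on activating proteins such as Srrm4, which binds just before the exon, while Ptbp1 holds some neuronal exons out of transcripts in dividing cells. Microexons are known for changing surface loops of proteins that act in axon growth, vesicle traffic and synapses, usually without shifting the reading frame.

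Inclusion is the share of transcripts that keep the exon, in percent: the mean of the reads on the junctions before and after it, over that mean plus the reads of junctions that skip it. The numerator and the skipping reads together are the informative reads, and an exon needed at least 20 of them in each field. Of the 2892 members, 1177 had no informative read in either field, 547 had some but too few, and 1168 (40.4%) were kept. In 339 of these, 1 of the 2 flanking junctions had no read in either field. Of the 339, 326 shared a splice site with another annotated exon, 169 lay next to an annotated intron shorter than 30 nt, and 11 had neither property. Their listed inclusion says nothing about skipping, so the values below are for the other 829 microexons, in 681 genes, unless all 1168 are named. An exon with no inclusion read at all cannot be measured this way. Among the 1177 without an informative read, which are also the members without an inclusion read, 64 had at least 20 skipping reads in each field between the exons that the annotation places around them. These 64 had a median length of 9 nt and count in none of the classes below, so the number of nearly always skipped microexons is a lower count.

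The sequences that carry the results are those of exons kept in only some transcripts, and those of related genes whose similar exons can be compared. Each is given 5′ to 3′ with the microexon in capitals and the neighbouring bases of the spliced transcript in lower case. Exons were located on mm10 through GENCODE M21 transcripts with the same transcript identifier and inner exon lengths. The letters were cut from an M21 transcript of the gene with the exon in its coding sequence, which may be another transcript. Positions are on mm9. The first set holds a neuronal kinase exon and those of translation factors and regulators of messenger RNA.
Src, 18 nt, chr2:157284579-157284596, plus strand: taacacGAGGAAGGTGGATGTCAGagaggg
Eif4g1, 21 nt, chr16:20674859-20674879, plus strand: ccagGGAGGATTCAGGTCTCTGCAGcact
Eif4g3, 21 nt, chr4:137651824-137651844, plus strand: tcagGGAGGATTCAGACCCATCCAGtttt
Cpeb2, 24 nt, chr5:43660108-43660131, plus strand: atgCAAGGAGTTATGGGCGAAGACGAGgtc
Cpeb3, 24 nt, chr19:37180281-37180304, minus strand: acaCCAGGAGCTATGGGCGGAGACGAGgtc
Cpeb4, 24 nt, chr11:31818801-31818824, plus strand: atgCAAGGACTTATGGGCGAAGGAGAGgtc

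The second set holds exons of surface proteins, shown because near-identical exons of paralogs had like or unlike inclusion.
Ptprs, 12 nt, chr17:56561256-56561267, minus strand: caagaaCAAACCTGACAGcaaacg
Ptprd, 12 nt, chr4:75700493-75700504, minus strand: taaaagTAAACCTGACAGgaagag
Adgrl1, 15 nt, chr8:86450161-86450175, plus strand: cttacaAAGTGGAGCAGAAAGtcttcg
Adgrl3, 15 nt, chr5:81938749-81938763, plus strand: cttataAAGTGGAACAAAAAGtttttc

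The third set holds neighbouring exons of the same transcript, or exons that occupy the same place in it, from proteins of the cytoskeleton and of endocytosis.
Clasp2, 24 nt, chr9:113767699-113767722, plus strand: tagAGGATACTTCTGACAAGATGGATGgaa
Clasp2, 18 nt, chr9:113769238-113769255, plus strand: tggatgGAACAGCATCTGATGATGgtcggg
Amph, 24 nt, chr13:19208106-19208129, plus strand: cagACATTGCCCTGGGACTTATGGACGaca
Amph, 24 nt, chr13:19210021-19210044, plus strand: acgACAAGCACTGATTTGGTACAACCAgct
Kif1a, 27 nt, chr1:94931123-94931149, minus strand: gGCAGTTTCTTGATTCGGACATACCTAGg
Kif1a, 24 nt, chr1:94923409-94923432, minus strand: ccgCGTTTCCTTCGGAAATGACACTAGgac

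Of the 829 microexons, 476 (57.4%) were included in over 90% of transcripts, 262 (31.6%) in 10 to 90% and 91 (11%) in under 10%. Internal exons of 28 to 300 nt, measured in the same way, numbered 117535, of which 3.55% lay at 10 to 90% and 1.25% under 10%. The median microexon was included at 97.6% in field 1 and 98.0% in field 2, and the first quartile lay at 47.2% and 50%. The median of the longer exons was 100% in both fields. Microexons at or under 90% made up 42.7% in field 1 and 41.4% in field 2, so the gap to the longer exons was far wider than the gap between the fields. Taken over all 1168 kept exons, the counts were 91, 262 and 815, and the median was 100%. In bulk RNA, a mixture of cells that keep and cells that skip an exon cannot be told apart from both forms within the same cell.

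The other exons of the genes that carry microexons had shares near those of all longer exons. The same 681 genes held 11348 internal exons of 28 to 300 nt, of which 3.93% lay at 10 to 90% inclusion and 1.21% under 10%. In the 225 genes that held a microexon at 10 to 90%, 219 of 4549 longer exons (4.81%) lay in that range. Those shares are measured in the same genes and libraries and are given without a test.

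Among exons with reads on both flanks, a choice made after the data were seen, inclusion was lower in shorter exons. Over all 1168 kept exons the median was 100% in all 4 length classes, and of the 77 kept exons of 3 to 9 nt only 23 had reads on both flanks. In those with both, median inclusion was 8.26% for the 23 microexons of 3 to 9 nt, 24.1% for the 91 of 10 to 15 nt, 97.2% for the 242 of 16 to 21 nt and 99.5% for the 473 of 22 to 27 nt. At 3 to 9 nt, 12 exons were under 10% and 8 at 10 to 90%, and at 10 to 15 nt the counts were 34 and 36. Among longer exons the share at 10 to 90% went on down, from 9.51% at 28 to 50 nt and 4.54% at 51 to 100 nt to 2.76% above 100 and up to 200 nt and 2.50% above 200 and up to 300 nt. At the upper edge of the rule, 35.1% of the 174 exons of 27 nt and 9.68% of the 62 exons of 28 nt lay at 10 to 90%. Exons of 27 nt keep the reading frame and exons of 28 nt do not.

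The reads before and after an exon would be equal in number if both junctions were read alike. The 2 flanks were more than 2-fold apart in 73.9% of microexons of 3 to 9 nt, 42.9% of those of 10 to 15 nt, 16.5% of those of 16 to 21 nt and 11.8% of those of 22 to 27 nt. In the shortest class 14 exons had fewer reads before the exon and 3 had fewer after it. In longer exons the share went the other way, from 11.8% at 28 to 50 nt and 14.6% at 51 to 100 nt to 19.9% above 100 and up to 200 nt and 27% above 200 and up to 300 nt. An exon needed only a read on each flank, over both fields, to enter this comparison. In rarely included exons the ratio can thus rest on few reads. Within microexons the imbalance moved with length as inclusion did. Neither its part in the low inclusion of the shortest exons nor the part of low read numbers in the imbalance was tested. With the flanks held within 2-fold, the mean of the field medians was 1.86% at 3 to 9 nt, from only 6 exons, and 19.3% at 10 to 15 nt, from 52.

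**Figure D1:**
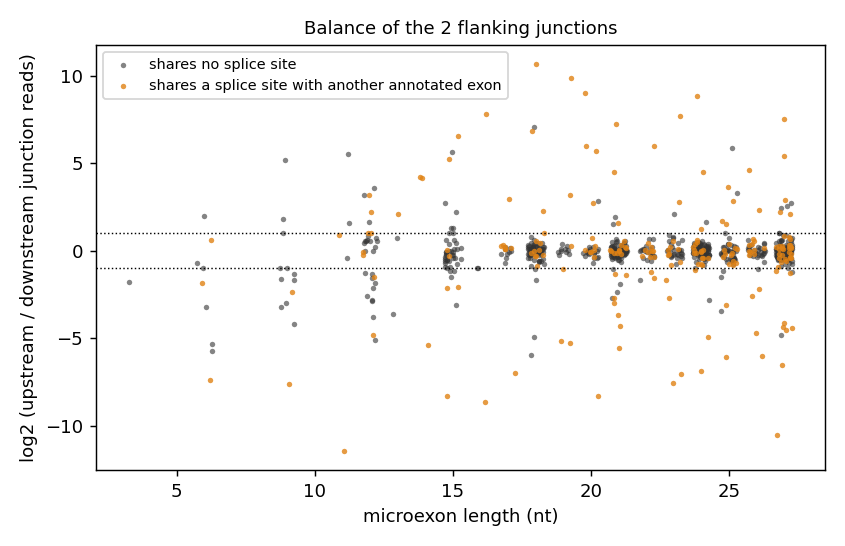
Balance of the flanking junctions in the 829 microexons. The horizontal axis is exon length in nt, with points spread sideways within each length, and the vertical axis is the log2 ratio of reads on the upstream junction to reads on the downstream junction (1 read added to each). Each point is an exon, orange where it shares a splice site with another annotated exon, and the dotted lines mark a 2-fold ratio: 152 exons lie outside them.

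Microexons that were skipped in part were mostly of lengths that keep the reading frame. A length divisible by 3 was found in 232 of 262 microexons at 10 to 90% (88.5%) and 79 of 91 under 10% (86.8%), against 258 of 476 over 90% (54.2%). In exons of 28 to 300 nt the shares were 48.2%, 45.7% and 39.1%. Of microexons of 22 to 27 nt, 38.2% of those divisible by 3 and 10% of the others lay at 10 to 90%, and at 16 to 21 nt the shares were 46.2% and 11.6%. At 10 to 15 nt the shares were close, 40% of 80 exons and 36.4% of 11, and all 23 exons of 3 to 9 nt were divisible by 3. Without exons that share a splice site, the shares divisible by 3 were 92.6% of 215 exons at 10 to 90%, 86.5% of 74 under 10% and 57.6% of 330 over 90%.

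**Figure D2:**
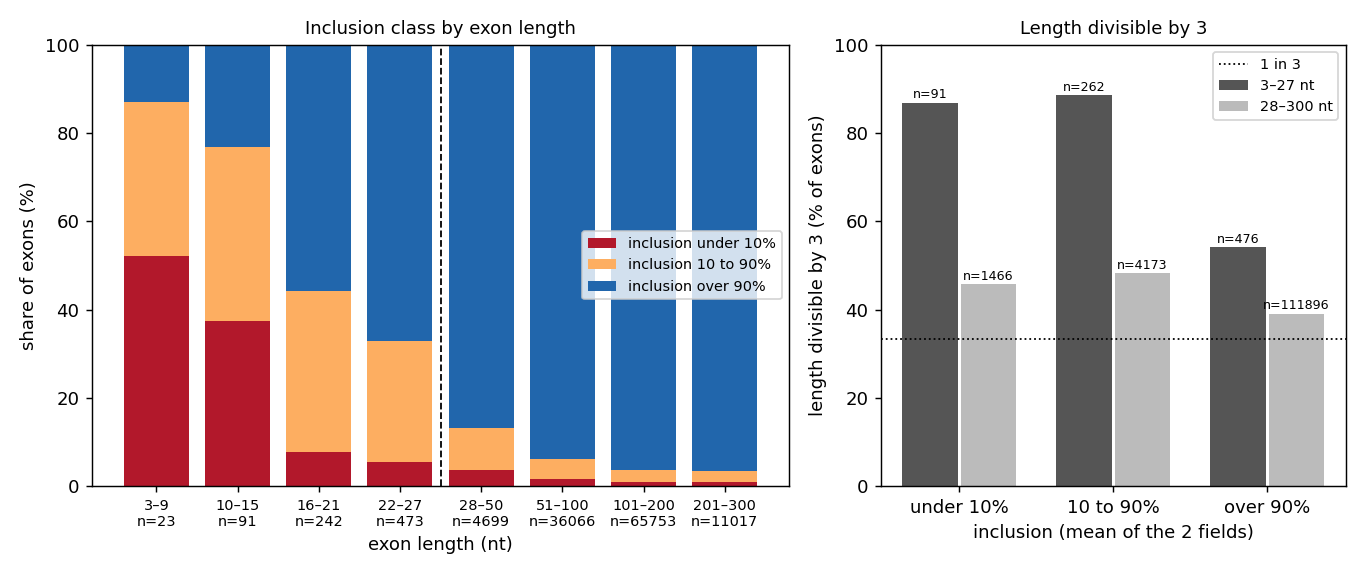
Inclusion by exon length, and the share of exons that keep the reading frame. On the left, stacked bars give the share of exons (percent) in each inclusion class by length in nt, with microexons left of the dashed line: the share over 90% is 13.0% at 3 to 9 nt and 67.0% at 22 to 27 nt. On the right, bars give the percent of exons with a length divisible by 3 in each inclusion class, dark for 3 to 27 nt and light for 28 to 300 nt, with the dotted line at 1 in 3.

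Collagens, the fibre proteins of connective tissue, supplied 45 of the 829 microexons in 18 genes, a group singled out after its values were seen. Of these, 42 were included in over 90% of transcripts and 33 were 27 nt long, the length that encodes 3 turns of the repeated collagen triplet. Col23a1 and Col18a1, which encode non-fibrillar collagens, had 7 and 5 microexons, all over 90%, while in Col13a1 2 of 7 lay at 10 to 90%. Leaving collagens out, 50.5% of the 434 microexons over 90% were divisible by 3.

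Of the 829 microexons, 728 (87.8%) were matched to an exon of a GENCODE M21 transcript. Of the matched exons, 191 of 214 at 10 to 90%, 59 of 73 under 10% and 407 of 441 over 90% lay in coding sequence. Exons found only in transcripts annotated for nonsense-mediated decay, which destroys messages with an early stop, numbered 5 of 73 under 10% and 7 of 214 at 10 to 90%, against 4 of 441 over 90%. The median GC content was 46.7% under 10% and 48.1% in both other classes. Of the 174 coding exons at 10 to 90% with a length divisible by 3, 78 began at a codon boundary.

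Genes were grouped into 8 lists by role, 260 genes in all, of which 98 held 156 measured microexons. The 156 had a median inclusion of 67.1%, with 29 under 10%, 90 at 10 to 90% and 37 over 90%, and 147 were divisible by 3. The 673 microexons of genes on no list had a median of 99.3%, with 62, 172 and 439 in the 3 classes and 422 divisible by 3. The lists name genes known for microexons, so this difference describes the lists and supports nothing further.

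**Figure D3:**
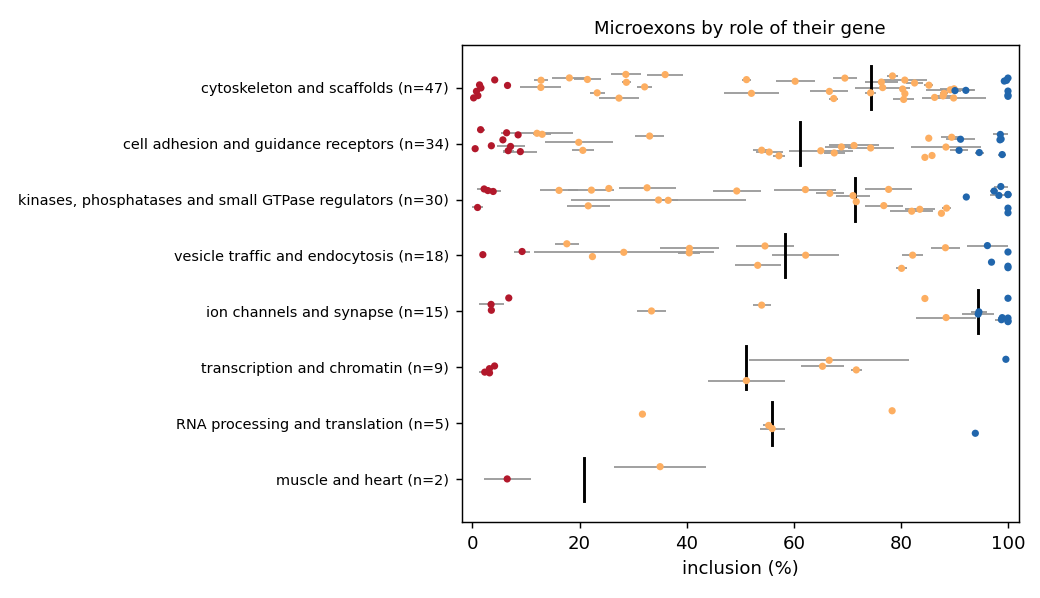
Microexon inclusion by role of the gene. The horizontal axis is inclusion in percent, each point is the mean of both fields for an exon, the grey line joins its field 1 and field 2 values, and the black bar is the median of the list. Points are red under 10%, orange at 10 to 90% and blue over 90%: the cytoskeleton list holds 32 orange points of 47, while 8 of the 15 channel and synapse exons are blue.

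Proteins that control translation and RNA held 5 measured microexons, 4 of them at 10 to 90%. Eif4g1 and Eif4g3 encode scaffolds that bring the ribosome to capped messages. The Eif4g1 exon was included at 54.3% and 56.3% in fields 1 and 2 (55.3% ± 1.43, SD, n = 2), from 972 and 1500 informative reads. The Eif4g3 exon, identical to it in 16 of 21 bases, was included at 31.4% and 32.0%, lower than in Eif4g1 in both fields. Cpeb proteins bind the 3′ ends of messages and control their translation. Their 24-nt exons, printed above, are identical to each other in 18 to 21 of 24 bases and were included at 53.6% and 58.3% in Cpeb4, 78.9% and 77.8% in Cpeb3 and 93.8% and 94.0% in Cpeb2. The order held in both fields, although Cpeb2 and Cpeb3 rest on 40.5 to 83 informative reads per field, and the Cpeb2 exon shares a splice site with another annotated exon.

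Kinases, phosphatases and regulators of small GTPases held 30 microexons, with 4 under 10%, 18 at 10 to 90% and 8 over 90%. Src is a tyrosine kinase whose neuronal form carries extra residues in the SH3 domain. Its 18-nt exon was included at 71.3% and 72.0% (71.7% ± 0.52, SD, n = 2), from 558 and 737 informative reads, so skipped and included forms were both present. Ptk2, the focal adhesion kinase, had an 18-nt exon at 44.9% and 53.8% and a 21-nt exon at 68.0% and 74.2%. Git1, which switches off the GTPase Arf, had a 27-nt exon at 73.3% and 82.2%. Its relative Git2 had a 6-nt exon at 0.77% and 3.57%. In Mark3, a kinase of microtubule-associated proteins, the 27-nt exon was included at 26.5% and 17.9%. Mapk8ip3, a scaffold that links kinases and motor proteins, had a 24-nt exon at 69.3% and 64.2%. The misshapen kinases Mink1 and Tnik, which act in cytoskeletal signalling, have 24-nt exons identical in 18 of 24 bases, included at 73.3% and 80.3% and at 91.8% and 92.7%.

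Adhesion and guidance receptors held 34 microexons, all divisible by 3, with 9 under 10%, 18 at 10 to 90% and 7 over 90%. Neurexins are presynaptic adhesion receptors. In Nrxn2, the 18-nt exon was included at 98.3% and 98.7%, the 27-nt exon at 87.6% and 91.4%, and the 24-nt exon, which shares a splice site with another annotated exon, at 71.9% and 65.9%. In Nrxn3, an 18-nt exon was included at 93.8% and 88.5% and a 27-nt exon, which also shares a splice site, at 76.0% and 66.5%.

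Latrophilins are adhesion receptors coupled to G proteins. The 15-nt exons of Adgrl1 and Adgrl3, identical in 13 of 15 bases, were both rarely used, at 6.40% and 6.33% and at 5.75% and 12.1%. In Adgrl1 a second microexon of 18 nt was included at 98.5% and 98.9%. In Adgrl2 the 27-nt exon was included at 35.8% and 30.4%, and an 18-nt exon at 7.69% and 5.64%, from 2301 and 2933 informative reads.

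The receptor phosphatases Ptprs and Ptprd organise synapses from the presynaptic side. Their 12-nt exons differ in 1 of 12 bases (11 identical), yet that of Ptprs was included at 85.9% and 85.8% and that of Ptprd at 5.44% and 5.92%. A 15-nt form of the Ptprd exon, with another acceptor, was included at 8.69% and 8.35%. The 2 forms share a donor and so share the reads on 1 flank, which limits both values. Among other receptors, the 15-nt exon of Ncam1, a neural cell adhesion molecule, was included at 0.37% and 0.62%. The 27-nt exon of Robo1, the guidance receptor for Slit, was included at 89.2% and 92.5%.

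Cytoskeleton and scaffold genes held 47 microexons, the most of any list, with 7 under 10%, 32 at 10 to 90% and 8 over 90%. Clasp2 stabilises growing microtubule ends and had 6 microexons, of which 5 lay between 56.6% and 86.1% in both fields. The sixth, of 3 nt, was included at 0.31% and 1.16%. In the intron that holds this exon, 61 and 97 reads used an unannotated donor 3 nt past the annotated one, which had 160 and 255. Those reads were not counted for the exon, and whether they carry it was not tested, so its low value is uncertain. The 24-nt and 18-nt exons printed above are neighbours: 295 and 405 reads joined them to each other, while 69 and 84 reads skipped both. Another 49 and 119 reads kept the 24-nt exon and skipped the 18-nt exon, so the pair was not always used together. A pair of 27-nt exons further on in Clasp2 was joined by 273 and 310 reads, and 124 and 202 reads skipped both. Only the first of that pair was skipped in 13 and 18 reads. In Dctn1, the large subunit of the dynein activator dynactin, 4 microexons lay between 66.7% and 89.7%. The 18-nt exon was joined to the 21-nt exon after it by 880 and 1270 reads.

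Kif1a, a motor that carries synaptic vesicle precursors, had 4 microexons that spanned nearly the whole range. Its first, of 18 nt, was included at 99.6% and 99.9%. The 27-nt exon and the 24-nt exon printed above occupy the same place in the message and were included at 4.49% and 3.81% and at 31.4% and 25.8%. They were joined to each other in only 5 and 0 reads. In the related motor gene Kif1b, a 27-nt exon identical to the former in 20 of 27 bases was included at 1.00% and 1.63%. Sptan1, which encodes alpha spectrin of the membrane skeleton, had an exon of 18 nt, with a shared splice site, and an exon of 24 nt without a skipping read among 1880 to 4464 informative reads per field. Its other microexon, of 15 nt, was included at 88.9% and 91.3%. In Macf1, which links actin and microtubules, an 18-nt exon was included at 82.5% and 78.5%, while exons of 9, 12 and 15 nt lay at 0.17 to 1.96%. The 12-nt and 15-nt exons overlap and share reads.

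**Figure D4:**
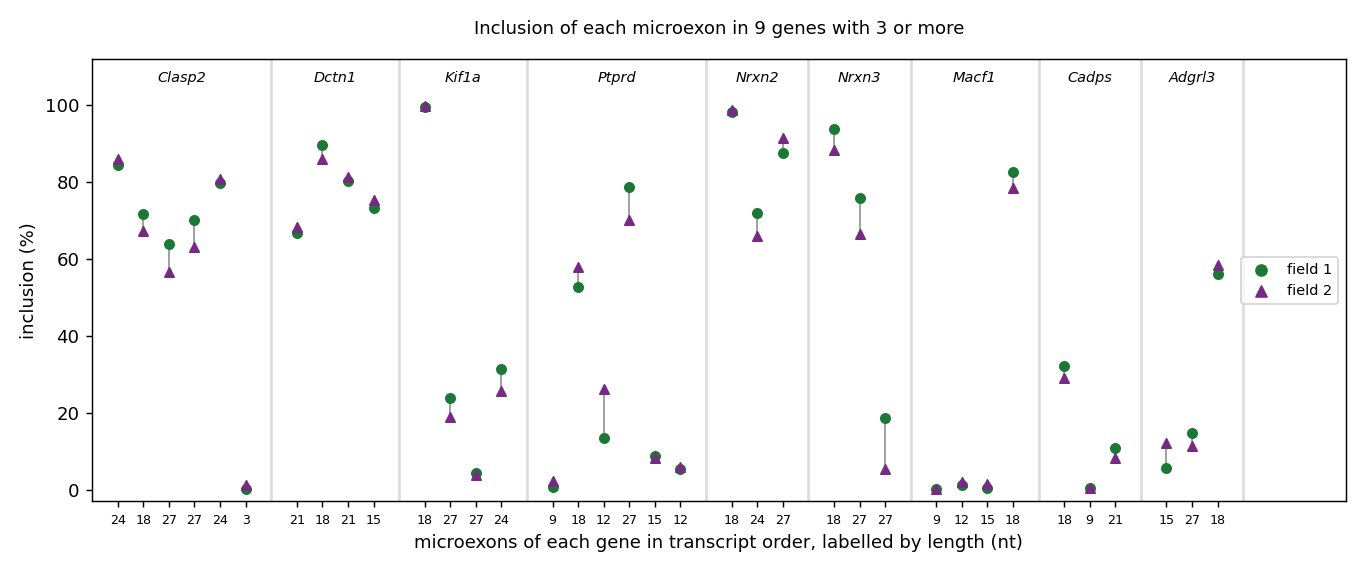
Inclusion of every measured microexon in 9 genes that hold 3 or more, chosen after their values were seen. The vertical axis is inclusion in percent, circles are field 1 and triangles field 2, and exons stand in transcript order, labelled by length in nt. In Clasp2 5 of 6 exons and in Dctn1 all 4 lie at intermediate values, whereas in Kif1a the exons reach from 3.81% to 99.9%.

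Genes of vesicle traffic and endocytosis held 18 microexons, with 2 under 10%, 11 at 10 to 90% and 5 over 90%. Both 24-nt exons of Amph, which curves membranes in endocytosis, were included at 100% in both fields, and 262 and 372 reads joined them to each other. A junction that leaves out such a pair counted as skipping only where reads also joined either exon past the other. Joint skipping of the pair may therefore be missed at 100%. Bin1, a relative of Amph, had a 24-nt exon at 85.6% and 91.0%. Picalm, an adaptor for clathrin, had a 24-nt exon at 10.8% and 7.76%, from 1496 and 1803 informative reads. Snap91, the neuronal relative of Picalm, had a 15-nt exon at 97.1% and 96.7%. The 12-nt exons of the dynamins Dnm1 and Dnm2, which cut vesicles from the membrane, agree in 8 of 12 bases. They were included at 11.4% and 45.1% and at 15.4% and 19.8%, so the spread between fields in Dnm1 exceeded the gap between the genes. In Itsn1, an endocytic scaffold, the 15-nt exon was included at 1.58% and 2.28%, with unequal flanks and a shared splice site.

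Transcription and chromatin genes held 9 microexons, 4 under 10%, 4 at 10 to 90% and 1 over 90%. Kdm1a, a histone demethylase, has a 12-nt exon that marks its neuronal form, and this was included at 4.71% and 3.53%, from 488 and 1219 informative reads. The flanks of that exon were far apart, with a log2 ratio of -2.88. The 6-nt exon of Taf1, a part of the general transcription factor TFIID, was included at 3.07% and 3.29%. A 12-nt exon of Zmynd8, a reader of histone marks, lay at 3.05% and 3.28%, with flanks at a log2 ratio of -1.585. The Mef2 factors, which switch on genes in neurons and muscle, had exons of intermediate use: 44.0% and 58.3% in Mef2a (24 nt), 51.6% and 81.6% in Mef2c (24 nt) and 61.4% and 69.3% in Mef2d (21 nt). The Mef2a exon was below the Mef2d exon in both fields, while the spread of Mef2c overlapped both. Phf21a, a part of a repressor complex with Kdm1a, had a 27-nt exon at 3.32% and 1.25% and a 23-nt exon at 100% and 99.2%.

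Ion channel and synapse genes held 15 microexons with a median of 94.4%: 3 under 10%, 4 at 10 to 90% and 8 over 90%. The calcium channel gene Cacna1d had a 27-nt exon at 91.5% and 97.4%. The auxiliary subunit gene Cacnb1 had a 20-nt exon at 82.8% and 94.1%, and Cacna1h, a T-type channel, had an 18-nt exon at 5.80% and 1.14%.

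Few microexons of muscle genes were measured, 2 in 16 listed genes. In Ryr1, the calcium release channel of skeletal muscle, an 18-nt exon was included at 43.6% and 26.4%. In Pdlim5, a protein of the muscle Z-disc, an 18-nt exon was included at 10.9% and 2.09%. All 6 skeletal muscle markers (Actc1, Acta1, Mylpf, Ckm, Tnnc2 and Myh3) were above 10 TPM (the deposited estimate of transcript share, scaled to a fixed total) in replicate 1, with a sum of 567, and below 4 TPM in replicate 2, with a sum of 10.8. The 2 cartilage markers summed to 594 and 80.8 TPM, the 2 skin markers to 82.7 and 8.43 TPM and the 2 red blood cell markers to 5971 and 2982 TPM. All 5 neuronal and all 5 radial glial markers were above 20 TPM in both replicates. Fewer cells of a type and less RNA per cell cannot be told apart here. Since the fields are not matched to the replicates, the part of these other tissues in differences between fields was not tested.

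Several shortest and best-read microexons were named without regard to role. Of the 8 shortest, 5 lay under 10%: the 3-nt exon of Clasp2 and the 6-nt exons of Taf1, Git2, Clec16a (5.19% and 4.84%) and Reln (5.88% and 10.6%), the last with a shared splice site. The flanks were unequal in the first 4 too, with log2 ratios of -1.81 in Clasp2, 2.00 in Taf1, -1 in Git2 and -3.25 in Clec16a. At such low inclusion these ratios rest on few flank reads. The Clasp2 value also leaves out the reads at the nearby unannotated donor given above. The 6-nt exon of Clip1, which binds microtubule plus ends, lay at 16.2% and 6.76%. That of Nsmf lay at 20.5% and 30.1% with flanks at a log2 ratio of -5.36. That of Nsfl1c was listed at 97.5% and 100%, but it shares a splice site and its flanks stood at a log2 ratio of -7.39, so most of its reads came from 1 side.

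Among exons at 10 to 90%, the most reads belonged to a 27-nt exon of Nnat, an imprinted neuronal gene, at 44.8% and 49.4% from 21561 and 38111 informative reads. It shares a splice site and its flanks stood at a log2 ratio of 5.40, so its value is uncertain. Agrn, which gathers receptors at synapses, had a 24-nt exon at 29.7% and 26.4%. Flna, an actin crosslinker, had a 24-nt exon at 80.1% and 74.5%. Atp6v0a1, a subunit of the proton pump of vesicles, had an 18-nt exon at 84.4% and 89.7%. The RNA-binding protein gene Ewsr1 had an 18-nt exon at 15.8% and 14.8% and the endophilin-related Sh3glb2 a 15-nt exon at 69.6% and 78.4%. Both of the last share a splice site with another annotated exon.

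At the ends of the range, with at least 100 informative reads in each field, the lowest inclusion was that of a 19-nt exon of Cyb5a (0% and 0.055%). It was followed by 9-nt exons of Ap1b1 (0.18% and 0.11%) and Macf1 (0.25% and 0.17%), an 18-nt exon of Prom1 (0.62% and 0%) and a 9-nt exon of Cadps (0.37% and 0.42%). The flanks of the Cadps exon stood at a log2 ratio of -1.70. No skipping read was seen for 25-nt exons of Selenow and Bsg, a 27-nt exon of Mfap2, a 24-nt exon of Pcbp2 or the 18-nt exon of Sptan1, the 5 with the most reads. Selenow had 9216 and 13424 informative reads. In 292 of 829 microexons no skipping read was counted in either field.

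Inclusion differed by at least 10 percentage points between the fields in 50 of 829 microexons (6.03%), against 0.707% of longer exons. Nearly all of them, 49, were among the 262 at 10 to 90%, and in that class the share was 18.7% against 17.1% of longer exons. The median difference in that class was 4.82 points for microexons and 4.34 for longer exons. The share of microexons that moved was thus near the background once exons of intermediate inclusion were compared with each other. Across the 262 exons the fields correlated with a Pearson r of 0.942 and a Spearman rho of 0.939, a description across exons of the same libraries. With at least 100 informative reads in each field, the widest gap was in Mef2c, at 51.6% and 81.6%. Next came Trim9, a brain ubiquitin ligase (48.2% and 66.0%), Mon2 (66.5% and 83.4%), Pls3, an actin bundler (16.1% and 32.7%), and Tenm3, an adhesion protein (31.8% and 46.2%).

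**Figure D5:**
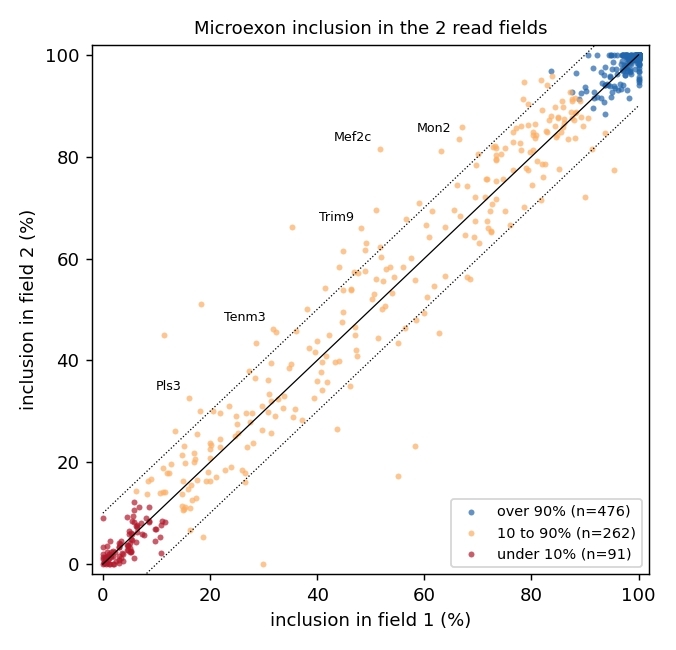
Inclusion of the 829 microexons in field 1 (horizontal axis, percent) and field 2 (vertical axis, percent). Each point is an exon, coloured by class, the solid line is equality and the dotted lines are 10 percentage points either side: 50 exons lie outside them, and the 5 with the widest gap at 100 or more informative reads are named.

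Counting error bounds these values. At 20 informative reads with 50% included, the exact 95% binomial interval runs from 27.2 to 72.8%, and at 184 reads from 42.6 to 57.4%. Median informative reads per microexon were 164 in field 1 and 203.5 in field 2, of 52713700 and 71600793 junction reads in all. These intervals treat informative reads as whole counts, whereas their inclusion part is a mean of 2 flanks, so they are only a rough guide. They also leave out duplicate reads, which no molecular tag identified, and so cover only the error of counting.

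The deposited transcript estimates gave another readout of the same libraries. For 194 microexons at 10 to 90%, the gene had TPM in transcripts with the exon or in transcripts that span it without the exon. The median share of TPM with the exon was 54.9%, against a median junction inclusion of 53.2%. Exon by exon the readouts were a median of 16.2 points apart, 81 of 194 were at least 20 points apart, and the Pearson r was 0.528. Transcripts were sorted by their GENCODE M21 models, while their TPM came from GENCODE M4. Transcripts found in either release alone therefore added nothing to the shares, and their part in the gap was not tested. For the Src exon the transcript share was 65.9% in replicate 1 and 66.0% in replicate 2. For Mef2d it was 12.8% and 14.4%, far under the junction values. In Clasp2 the transcripts without the 24-nt and 18-nt exons added 0 TPM, so the share was 100%.

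Levels were read for a chosen list of 12 splicing regulators, some of which are given here. Srrm4 stood at 24.5 TPM in replicate 1 and 32.1 in replicate 2, and its relative Srrm3 at 52.2 and 52.3. Ptbp1, the repressor of some neuronal exons, stood at 208 and 179 TPM, and its neuronal relative Ptbp2 at 111 and 150. Rbfox2 was at 181 and 186 TPM, above Rbfox1 (63.8 and 67.5) and Rbfox3 (25.1 and 24.5) in both replicates. Nova1 was at 56.7 and 52.7 TPM and Nova2 at 25.9 and 23.5.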

How the data were processed

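The deposited junction table on mm9 gives read counts per splice junction, with 2 fields per junction that sum to the score column; the aligner is not given in the sources used here, nor is the meaning of the fields. Exons came from the deposited mm9 exon table, whose score column was not used for any value. On mm10 the authors deposited expected counts, TPM and FPKM per gene and TPM per transcript (annotation GENCODE M4, per the accompanying text), with 102727538 and 138440954 expected counts in replicates 1 and 2. Per the labels, libraries were stranded, paired-end and made from poly(A)+ RNA of 2 biosamples with the same donor identifier, and the spread is that between these pools.

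Skipping junctions ran from any donor joined to the exon to any acceptor the exon joined to. A junction that leaves out 2 neighbouring microexons at once can thus go uncounted, so inclusion of such neighbours may be overstated. Classes were under 10%, 10 to 90% and over 90% by the mean of both fields, with internal exons of 28 to 300 nt as comparison. Of the members, 2785 had a symbol for every gene identifier. The members, lists and rules were chosen with earlier results of these data known. Describing only the 829 exons with reads on both flanks was decided after seeing the data. The named exons were, within those, up to 6 of each list with the most informative reads, the 8 shortest, the 8 at 10 to 90% with the most reads, and, at 100 or more reads per field, the 5 lowest, the 5 least skipped and the 5 most different between fields. Related exons of named genes, Dnm1, Mink1, Ptprs and other exons of multi-microexon genes were added after their values were seen. Identity is the count of equal bases at equal positions in exons of the same length. Inclusion was tested on simulated junction reads. Python 3.11.15, pandas 2.3.3, numpy 2.4.6, scipy 1.17.1 and matplotlib 3.10.9 were used. Alternatives were other read minimums, the lower flank, wider skipping, annotated partners only, no shared splice site, exons internal to every transcript, balanced flanks, each field or replicate alone, and FPKM for TPM. Values of some exons chosen this way are left out of the text.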

Additional observations from a re-analysis of the deposited data

How the results depend on the processing

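The rule as first set keeps all 1168 exons, including those with a flank that had no read. For it the difference between the median inclusion of microexons divisible by 3 and of the others was -2.01 points, and the median was 100% in all 4 length classes. The differences and medians here are means of the field values. Each setting changed 1 choice at a time, except the last, which changed 2.

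With a minimum of 10 informative reads the difference by divisibility was -1.19 points. With 50 reads it was -5.43 points, the median at 10 to 15 nt was 99.0%, and 33 exons differed by at least 10 points between fields. With only annotated partners the difference was -0.75 points, and with each field alone it was -1.70 to -1.61.

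With the lower of the flanks, 753 exons were kept, with a median of 94.2%, 397 over 90% and 69.5% divisible by 3. The difference was -22.0 points, and the medians by length were 0.58, 10.3, 89.4 and 99.4%, from the shortest class to the longest. With every junction across the exon counted as skipping, the median was 76.8% and 586 exons lay under 10%, many of them without an inclusion read. The difference was then -40.9 points, and the medians by length were 0, 3.28, 94.3 and 97.6%. Without exons that share a splice site, 632 were kept, with a median of 95.9%, 343 over 90%, 73.1% divisible by 3 and a difference of -16.9 points. Their medians by length were 9.36, 24.1, 93.8 and 99.7%.

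The remaining settings were added after seeing the data. Reads on both flanks gave a median of 97.8%, 476 exons over 90%, 68.6% divisible by 3 and a difference of -14.8 points, with medians by length of 7.60, 23.9, 96.9 and 99.7%. Flanks within 2-fold gave 677 exons, a median of 97.7%, 389 over 90%, 69.4% divisible by 3, a difference of -14.4 points, and medians by length of 1.86, 19.3, 94.5 and 99.7%. Reads on both flanks and no shared splice site gave 619 exons, a median of 95.1%, 330 over 90%, 73.2% divisible by 3, a difference of -17.9 points, and medians by length of 4.01, 24.1, 93.4 and 99.5%.

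The difference by divisibility was negative in every setting run, while the low medians of the 2 shortest classes appeared only where exons with an unread flank, unequal flanks or a shared splice site were left out, the lower flank was used, or skipping was counted widely. The causes were not tested beyond the construction of these settings. Another 88 values were counted as unmoved. Those with a spread between fields or replicates moved by no more than that spread, and counts by less than 1.5 times. Shares divisible by 3 from 59.0 to 61.1% were counted so too, against 61.0% in the main setting. The planned description of sequence in the introns around microexons was not run, since intron sequence was not used here. No paired analysis was possible because there is 1 group. Depth limits exons near 20 informative reads, where 0 inclusion reads still allow up to 16.8%.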

Other observations

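Some genes string many microexons together. BC051142 held the most, 16 measured microexons of 15 to 27 nt, of which 13 lay over 90% and 3 at 10 to 90%. Skipping of several neighbours at once may go uncounted in these values. Neighbouring microexons of this gene were joined to each other in 10 pairs with at least 15 reads in each field, the best-read pair with 71 and 93. Outside this gene, microexons followed each other directly in Nbr1, which encodes a receptor of autophagy (19 and 23 nt, joined by 460 and 724 reads), and in Porcn, which attaches lipid to Wnt proteins (15 and 18 nt, joined by 176 and 243 reads). They did so too in Ap1ar, which binds an adaptor of vesicle coats (26 and 27 nt, joined by 321 and 459 reads).

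Microexon pairs of Col6a1, a collagen of connective tissue, were joined by 1068 and 410 reads (27 and 27 nt) and by 582 and 256 reads (21 and 21 nt). All 4 measured Col6a1 microexons were included at 100%, the upper limit of the measure, which can miss junctions that leave out a whole pair. They therefore say little on whether inclusion differs between the fields where reads do. All these genes were singled out after their values were seen.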
